A study of Daucus carota with 18 samples.

Results

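The last steps that turn colourless flavonoid precursors into stable, coloured anthocyanins were followed here through 5 carrot genes. They are a dihydroflavonol reductase (DFR, DCAR_021485), a leucoanthocyanidin dioxygenase (LDOX, DCAR_006772), the galactosyltransferase DcUCGalT1 (DCAR_009912), the glycosyltransferase DcUCGXT1 (DCAR_021269) and a gene annotated as a UDP-glycosyltransferase (DCAR_019074, UGT in what follows). They were picked by name and identifier among 32113 annotated genes, and all 5 passed the filter on low counts in every main fit. For comparisons between sets that filter ran over all 18 libraries, and UGT passed it through its POP libraries. In the tissue tests of dP1 and pP, too, UGT passed the filter only through POP. The study drew its candidate list from these same libraries, so the direction of these genes is not independent evidence.

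Both tissues of 9 field-grown roots were sequenced as RNA-seq libraries, the outer phloem, which was purple (POP), and the inner phloem, which was not (NPIP), giving 18 libraries in 6 groups of 3. The set dP2 held dark purple roots, high in anthocyanin and with purple xylem, of 1 F2 family grown at Hancock, Wisconsin. The set dP1 held dark purple roots, also high in anthocyanin, with non-purple xylem. The set pP held pale purple roots, low in anthocyanin, with non-purple xylem. Both dP1 and pP came from a sibling F2 family grown at El Centro, California. For dP2, family, field site and xylem colour go with the set and cannot be told apart. The roots were segregating F2 plants sorted by colour, so the 3 roots of a set need not share a genotype. The libraries held 6918267 to 9133313 expected counts each. Values are CPM, read counts scaled to library size, after TMM normalisation over the 18 libraries, given in the order of roots 1, 2 and 3 unless stated.

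In plants, DFR reduces dihydroflavonols to leucoanthocyanidins, and LDOX (also called anthocyanidin synthase) oxidises these to anthocyanidins such as cyanidin. Glycosyltransferases then add sugars, which make the pigment stable and soluble enough to be stored in the vacuole. In the carrot root, DcUCGalT1 moves a galactose from UDP-galactose to cyanidin, and DcUCGXT1 is described as the enzyme that adds the next sugar. What UGT accepts as a substrate is not given in the sources used here.

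The coding lengths deposited with the counts were 1140 bases for DFR, 1209 for LDOX, 1359 for DcUCGalT1, 1383 for DcUCGXT1 and 2205 for UGT. The expected counts of all 5 genes were whole numbers as deposited in each of the 18 libraries, while RSEM gave 7.16% to 8.83% of all genes of a library a fractional count. The RT-qPCR primers of the study define the transcript meant by the names of both characterised glycosyltransferases, and are printed 5′ to 3′ for that reason.
DcUCGalT1 forward: accaccagcatcacaatactc
DcUCGalT1 reverse: tccagagcttcagccaattc
DcUCGXT1 forward: tggagaaaggagaagaagatggg
DcUCGXT1 reverse: tgatgaagttgtggatgtaagagga
The primers are 21, 20, 23 and 25 bases long in this order, and the study's primer table calls the first gene DcUGalT1. They played no part in the libraries described here.

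All 5 genes were higher in the POP than in the NPIP of 9 of 9 roots. Within a root, log2 CPM (prior count of 2) of POP minus NPIP lay between 1.30 and 6.08 for DFR, 3.18 and 7.46 for LDOX, 4.16 and 7.32 for DcUCGalT1, 1.68 and 5.57 for DcUCGXT1, and 2.29 and 6.50 for UGT. These differences pair the libraries by their number, and in pP the numbers of roots 1 and 3 may be crossed. There the deviations of POP 1 from its group mean correlated best with those of NPIP 3 (r = 0.577) and those of POP 3 with NPIP 1 (r = 0.426). The low ends for DFR, LDOX, DcUCGalT1 and DcUCGXT1 all came from pP root 1 and depend on that pairing. Within each set, all POP libraries lay above all NPIP libraries for each of the 5 genes, a pattern found for 17.1% of the genes tested in dP2, 20.5% in dP1 and 14.4% in pP. By edgeR's quasi-likelihood test at an FDR under 0.05, 5 of the 5 genes were upregulated in POP of dP2, 5 of 5 in dP1 and 3 of 5 in pP. The same call was made for 8.22%, 11.5% and 4.89% of all genes tested in dP2, dP1 and pP. Over the 3 sets together, 5 of 5 were upregulated, against 19.4% of all genes. The median log2 fold change (log2FC, POP over NPIP) of the 5 genes was 4.80 in dP2, 6.80 in dP1 and 5.44 in pP, against −0.03, 0.00 and 0.00 for all genes. In bulk tissue, fewer cells of a type and less RNA per cell cannot be told apart.

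**Figure D1:**
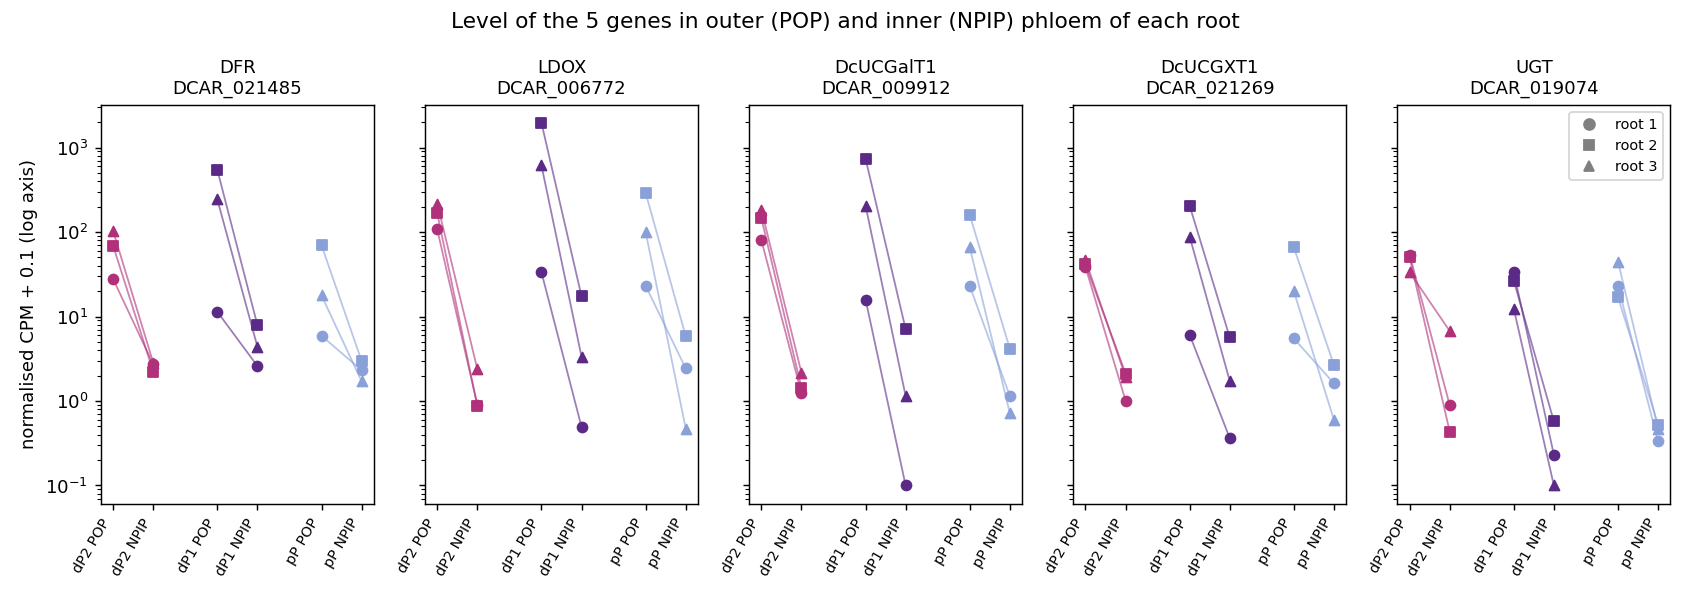
Normalised CPM plus 0.1 (log axis) of the 5 genes in each library, POP left of NPIP, with a line for each root and a symbol for its number. Every line falls to the right, and for DFR, LDOX, DcUCGalT1 and DcUCGXT1 root 1 is the lowest POP library of dP1 and of pP, whereas for UGT the lowest is root 3 in dP1 and root 2 in pP.

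DFR had 27.7, 68.6 and 103 CPM in POP of dP2, against 2.62, 2.12 and 2.75 CPM in NPIP. In dP1 it had 11.3, 544 and 243 CPM in POP and 2.50, 7.81 and 4.30 CPM in NPIP. In pP it had 5.81, 69.5 and 17.6 CPM in POP and 2.21, 2.88 and 1.61 CPM in NPIP. The tissues did not overlap in any set, but the POP of root 1 was only 4.52-fold its own NPIP in dP1 and 2.62-fold the NPIP of the same number in pP, which may be from another root. The log2FC was 4.80 ± 0.53 (SE, edgeR FDR = 0.00611) in dP2 and 5.77 ± 1.28 (edgeR FDR = 0.0211) in dP1. In pP it was 3.82 ± 0.93 and missed the threshold (edgeR FDR = 0.0632). Over the 3 sets it was 4.78 ± 0.65 (edgeR FDR = 5.92e-05), and the reductase was the only 1 of the 5 genes with at least 1.61 CPM in every NPIP library.

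LDOX, the oxidase that follows, had 107, 166 and 217 CPM in POP of dP2, against 0.798, 0.783 and 2.29 CPM in NPIP. In dP1 it had 33.3, 1961 and 614 CPM in POP and 0.394, 17.3 and 3.25 CPM in NPIP. In pP it had 23.0, 290 and 100.02 CPM in POP and 2.33, 5.76 and 0.372 CPM in NPIP. POP of dP1 root 2 stood far above every other library, and NPIP of the same root was the highest NPIP library. The log2FC was 7.04 ± 0.54 (edgeR FDR = 0.00332) in dP2, 6.96 ± 1.73 (edgeR FDR = 0.0312) in dP1 and 5.62 ± 1.22 (edgeR FDR = 0.0457) in pP. Over the 3 sets it was 6.53 ± 0.88 (edgeR FDR = 5.21e-05).

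DcUCGalT1, which attaches the first sugar, had 80.0, 145 and 184 CPM in POP of dP2, against 1.14, 1.34 and 2.06 CPM in NPIP. In dP1 it had 15.8, 736 and 205 CPM in POP and 0, 6.98 and 1.04 CPM in NPIP. In pP it had 22.8, 159 and 65.7 CPM in POP and 1.05, 4.05 and 0.620 CPM in NPIP. In POP of each set its roots had the same order as for LDOX, with dP1 root 2 the highest of all. The lowest POP library was dP1 root 1 for DcUCGalT1 and pP root 1 for LDOX. The log2FC was 6.55 ± 0.45 (edgeR FDR = 0.00278) in dP2, 6.88 ± 1.69 (edgeR FDR = 0.0301) in dP1 and 5.44 ± 0.99 (edgeR FDR = 0.0272) in pP. Over the 3 sets it was 6.28 ± 0.80 (edgeR FDR = 3.36e-05).

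DcUCGXT1, which extends the sugar chain, had 38.4, 41.2 and 46.5 CPM in POP of dP2, against 0.912, 2.01 and 1.83 CPM in NPIP. In dP1 it had 5.97, 204 and 88.1 CPM in POP and 0.263, 5.56 and 1.63 CPM in NPIP. In pP it had 5.40, 65.5 and 19.7 CPM in POP and 1.51, 2.56 and 0.496 CPM in NPIP. The 3 POP libraries of dP2 differed by 1.21-fold, whereas those of dP1 spanned 34.2-fold and those of pP 12.1-fold. The log2FC was 4.79 ± 0.33 (edgeR FDR = 0.00278) in dP2 and 5.31 ± 1.35 (edgeR FDR = 0.0339) in dP1. In pP it was 4.32 ± 1.03 and missed the threshold (edgeR FDR = 0.0599). Over the 3 sets it was 4.79 ± 0.69 (edgeR FDR = 8.72e-05).

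UGT, the uncharacterised glycosyltransferase, was the steadiest of the 5 in POP. It had 54.1, 50.2 and 33.4 CPM in POP of dP2, against 0.798, 0.336 and 6.64 CPM in NPIP. In dP1 it had 33.2, 26.4 and 12.2 CPM in POP and 0.131, 0.473 and 0 CPM in NPIP. In pP it had 23.0, 16.7 and 44.4 CPM in POP and 0.233, 0.427 and 0.372 CPM in NPIP. NPIP of dP2 root 3 stood apart, and was the only NPIP library above 0.798 CPM. No NPIP library of dP1 or pP reached the 1 CPM of the low-count filter, so UGT entered those tissue tests only through POP. Its calls there are given as descriptions. The log2FC was 4.20 ± 0.97 (edgeR FDR = 0.0402) in dP2, 6.80 ± 0.76 (edgeR FDR = 0.00227) in dP1 and 6.30 ± 0.54 (edgeR FDR = 0.00530) in pP. Over the 3 sets it was 5.76 ± 0.54 (edgeR FDR = 2.74e-06). Without the NPIP of dP2 root 3 the log2FC in dP2 was 6.39 (edgeR FDR = 0.00255).

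**Figure D2:**
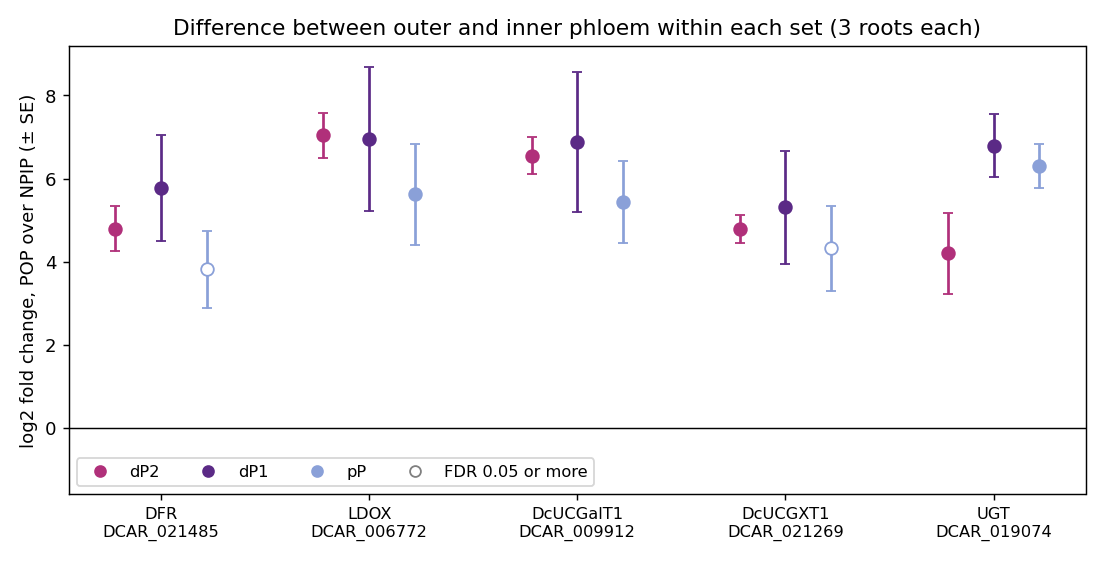
Log2FC of POP over NPIP (± SE, 3 roots a set) for the 5 genes in dP2, dP1 and pP, with open points at an FDR of 0.05 or more. The values lie between 3.82 and 7.04, the open points are DFR and DcUCGXT1 in pP, and the error bars of dP2 are the shortest for all genes but UGT.

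The spread between roots set how firmly these differences could be stated. In dP1, leaving out POP root 3, NPIP root 1 or NPIP root 3 left 1 of the 5 genes called, which was UGT, with edgeR FDR between 0.0578 and 0.126 for the others where they were lost. DcUCGXT1 was also lost without POP root 2. The other 4 genes kept log2FC between 4.22 and 9.18 in all 6 fits without a library. In pP the number called was 1 without POP root 3, NPIP root 1 or NPIP root 3, and 5 without POP root 1. LDOX in pP lost its call in 5 of 6 such fits (edgeR FDR 0.0642 to 0.166) and DcUCGalT1 in 3 of 6 (edgeR FDR 0.0748 to 0.118). In dP2, DFR, LDOX, DcUCGalT1 and DcUCGXT1 remained called whichever library was left out, whereas UGT was called in only 1 of 6 such fits, that without NPIP root 3, with edgeR FDR between 0.0777 and 0.125 in the other 5. The mean over the 3 sets remained called for all 5 genes in 18 of 18 fits.

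DESeq2 and edgeR's likelihood ratio test called 5 of 5 genes in pP, where the quasi-likelihood test called 3. Fitting the 18 libraries together also gave 5 in pP. The POP of dP1 root 1 was low for 4 of the genes, and without it the log2FC in dP1 was 6.37 for DFR (edgeR FDR = 0.00587) and 7.56 for LDOX (edgeR FDR = 0.0280).

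Levels of different genes were compared per length, in the TPM values the authors deposited. In POP, the TPM fell in the order LDOX, DcUCGalT1, DFR, DcUCGXT1 and UGT, with medians over 9 libraries of 132, 102, 58.4, 28.4 and 12.9. The lowest and highest TPM in POP were 16.4 and 1555 for LDOX, 10.3 and 514 for DcUCGalT1, 4.42 and 460 for DFR, 3.33 and 140 for DcUCGXT1, and 4.75 and 22.6 for UGT. The neighbours kept this order within a library in 9 of 9 POP libraries for LDOX over DcUCGalT1, 8 of 9 for DcUCGalT1 over DFR and 8 of 9 for DFR over DcUCGXT1. DcUCGXT1 was above UGT in 6 of 9, so this pair was not separated. In NPIP the order was another one, with DFR at a median of 2.32 TPM, LDOX at 1.81, DcUCGXT1 at 1.25, DcUCGalT1 at 0.90 and UGT at 0.15. DcUCGalT1 lay above DFR in 8 of 9 POP libraries and in 1 of 9 NPIP libraries.

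**Figure D3:**
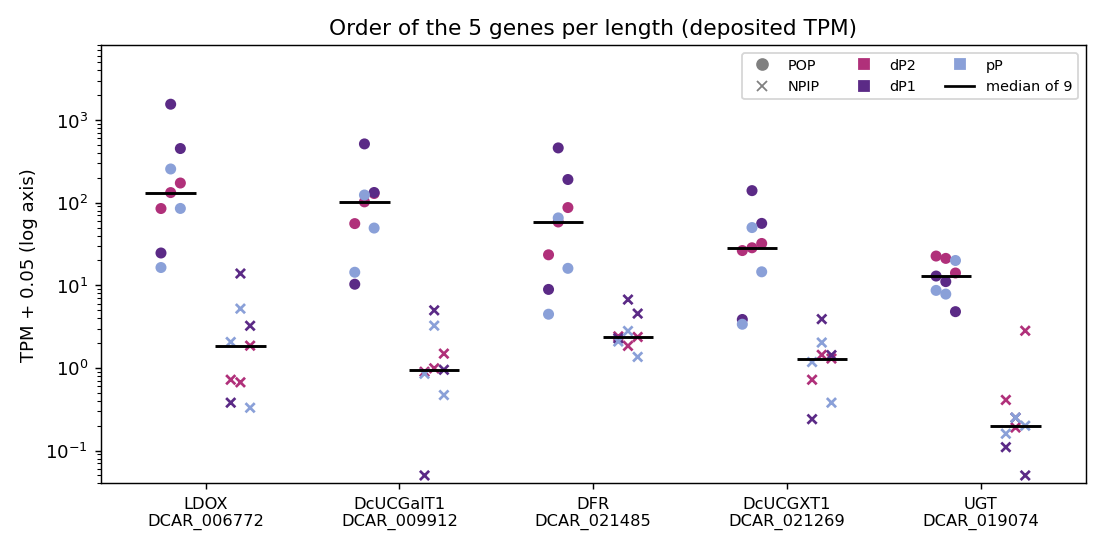
Deposited TPM plus 0.05 (log axis) of the 5 genes in the 9 POP libraries (circles) and the 9 NPIP libraries (crosses), with black bars at the medians. In POP the medians step down from LDOX at 132 to UGT at 12.9, and in NPIP the highest median is that of DFR at 2.32.

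Dark purple and pale purple roots were then compared within the same tissue, since dP1 and pP shared a family and a field. In POP of dP1 against POP of pP, 0 of the 5 genes passed edgeR's quasi-likelihood test, where 1.33% of all genes did. At an unadjusted p under 0.05 there were 2, DFR and LDOX, and DESeq2 and the likelihood ratio test each called 1, DFR. The log2FC of dP1 over pP was 3.10 ± 1.01 (SE, edgeR FDR = 0.162) for DFR, 2.66 ± 1.23 (edgeR FDR = 0.337) for LDOX and 1.95 ± 1.10 (edgeR FDR = 0.438) for DcUCGalT1. It was 1.72 ± 1.0 (edgeR FDR = 0.454) for DcUCGXT1 and −0.22 ± 0.69 (edgeR FDR = 0.937) for UGT. The libraries of the 2 sets overlapped for every gene. For DFR, roots 2 and 3 of dP1 lay above all 3 roots of pP, and root 1 of dP1 lay below 2 of them. With 1 library left out, the log2FC ran from 2.01 to 4.51 for DFR (edgeR FDR 0.0682 to 0.407), 1.21 to 3.84 for LDOX, 0.40 to 2.87 for DcUCGalT1 and 0.62 to 2.99 for DcUCGXT1. It was lowest without the POP of dP1 root 2 and highest without the POP of pP root 2 for each of these 4 genes, and none of the 5 passed in any of the 6 fits.

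In POP of dP2 against POP of pP, 0 of 5 genes passed, against 31.1% of all genes, and none reached an unadjusted p under 0.05 or was called by DESeq2 or the likelihood ratio test. The log2FC was 1.16 ± 0.95 for DFR, 0.30 ± 1.16 for LDOX, 0.78 ± 1.07 for DcUCGalT1, 0.53 ± 0.98 for DcUCGXT1 and 0.78 ± 0.69 for UGT, with edgeR FDR between 0.376 and 0.868. Without the POP of pP root 2 these were 2.57 for DFR, 1.48 for LDOX, 1.70 for DcUCGalT1 and 1.81 for DcUCGXT1, and without the POP of pP root 1 they were 0.67, −0.19, 0.34 and 0.045, with no gene passing in any fit without 1 library. In POP of dP2 against POP of dP1, 0 of 5 passed, against 33.5% of all genes, again with 0 at an unadjusted p under 0.05 and 0 by both other tests. DFR was −1.95 ± 0.96 (edgeR FDR = 0.133), LDOX −2.36 ± 1.22 (edgeR FDR = 0.150), DcUCGalT1 −1.17 ± 1.07, DcUCGXT1 −1.19 ± 0.98 and UGT 1.0 ± 0.69 (edgeR FDR = 0.282). Without the POP of dP1 root 1, DFR passed at −2.50 (edgeR FDR = 0.0269), but without the POP of dP1 root 2 it was −0.86 (edgeR FDR = 0.538), LDOX −0.91, DcUCGalT1 0.39 and DcUCGXT1 −0.086. These comparisons share libraries, so their values are not independent of each other. A missed threshold does not show that the sets were alike.

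In NPIP, no comparison between sets was passed by DFR, LDOX, DcUCGalT1 or DcUCGXT1. NPIP of dP1 against NPIP of pP gave 0 of 5 calls, against 4.57% of all genes, with 0 at an unadjusted p under 0.05 and 0 by DESeq2 and the likelihood ratio test. UGT was higher in NPIP of dP2 than in NPIP of pP by a log2FC of 2.86 ± 0.98 (edgeR FDR = 0.0338). It was also higher in NPIP of dP2 than in NPIP of dP1, by 3.56 ± 1.07 (edgeR FDR = 0.0161). It was the 1 gene of 5 called higher in dP2 in each, where 18.9% and 22.4% of all genes were. Both calls rested on NPIP of dP2 root 3, which held 58 of the 68 UGT reads in this group, against 9 reads in all in NPIP of pP and 5 in NPIP of dP1. Without that library the log2FC was 0.67 (edgeR FDR = 0.578) against pP and 1.37 (edgeR FDR = 0.273) against dP1. The call against pP was also lost without any 1 NPIP library of pP (edgeR FDR 0.0710 to 0.0996), and that against dP1 without NPIP of dP1 root 1 (edgeR FDR = 0.0555) or root 3 (edgeR FDR = 0.0606). On the 6 libraries of a comparison alone, UGT did not reach the low-count filter. It entered these NPIP tests only through its POP libraries, so both calls are given as descriptions.

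The test of whether the tissue difference itself differed between sets found no gene of the 5. In the fit of 18 libraries, 0 of 5 passed for dP2 minus dP1, dP2 minus pP and dP1 minus pP, where 2.42%, 1.11% and 0.0148% of all genes did. The counts at an unadjusted p under 0.05, with DESeq2 and with the likelihood ratio test were 0 as well. The largest of these differences was −2.56 ± 1.30 on the log2 scale for UGT in dP2 minus dP1 (edgeR FDR = 0.299). The calls in dP2 and dP1 and the missed calls of DFR and DcUCGXT1 in pP therefore do not show that the tissue difference was smaller in pale roots.

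DFR, LDOX, DcUCGalT1 and DcUCGXT1 moved together from root to root. Between the lowest and the highest of the 9 POP libraries, DFR spanned 93.7-fold, LDOX 85.4-fold, DcUCGalT1 46.6-fold and DcUCGXT1 37.8-fold. The ratio of each to LDOX moved far less, by 2.68-fold for DFR, 2.98-fold for DcUCGalT1 and 3.44-fold for DcUCGXT1. Part of that movement lay between the sets, as was noticed after the values were seen. DcUCGalT1 was 0.745 to 0.876 of LDOX in dP2, 0.333 to 0.474 in dP1 and 0.549 to 0.994 in pP. DcUCGXT1 was 0.214 to 0.358 of LDOX in dP2, 0.104 to 0.179 in dP1 and 0.197 to 0.235 in pP. Both ratios were thus lower in the 3 libraries of dP1 than in the other 6. DFR was 0.258 to 0.473 of LDOX in dP2, 0.278 to 0.396 in dP1 and 0.176 to 0.253 in pP, where it was lower than in the other 6. Over the 9 POP libraries, which share the normalisation, Pearson's r of log2 CPM with LDOX was 0.978 for DFR, 0.966 for DcUCGalT1 and 0.973 for DcUCGXT1. DcUCGalT1 and DcUCGXT1 had r = 0.977 with each other. With the 6 group means taken out (18 libraries), r with LDOX was still 0.882, 0.979 and 0.972 for DFR, DcUCGalT1 and DcUCGXT1.

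UGT did not share this pattern. It spanned 4.42-fold over the 9 POP libraries, its ratio to LDOX spanned 74.2-fold, and its r with LDOX was −0.34, against 0.81 over all 18 libraries, where the tissue difference carries it. The POP of dP1 root 1 showed the split most plainly. There DFR, LDOX, DcUCGalT1 and DcUCGXT1 were at 11.3, 33.3, 15.8 and 5.97 CPM, all the lowest of dP1, and UGT was at 33.2 CPM, the highest of dP1. The reverse held in the POP of pP root 2, with DFR, LDOX, DcUCGalT1 and DcUCGXT1 the highest of pP and UGT, at 16.7 CPM, the lowest. A single gene, DCAR_024247, named after its values were seen, held 6.81% of the counts of dP1 POP root 1 and 6.03% of pP POP root 1, between 1.56% and 5.19% of the other POP libraries of dP1 and pP, and at most 0.206% of those of dP2. Its part in the low values of the 4 genes was not tested.

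**Figure D4:**
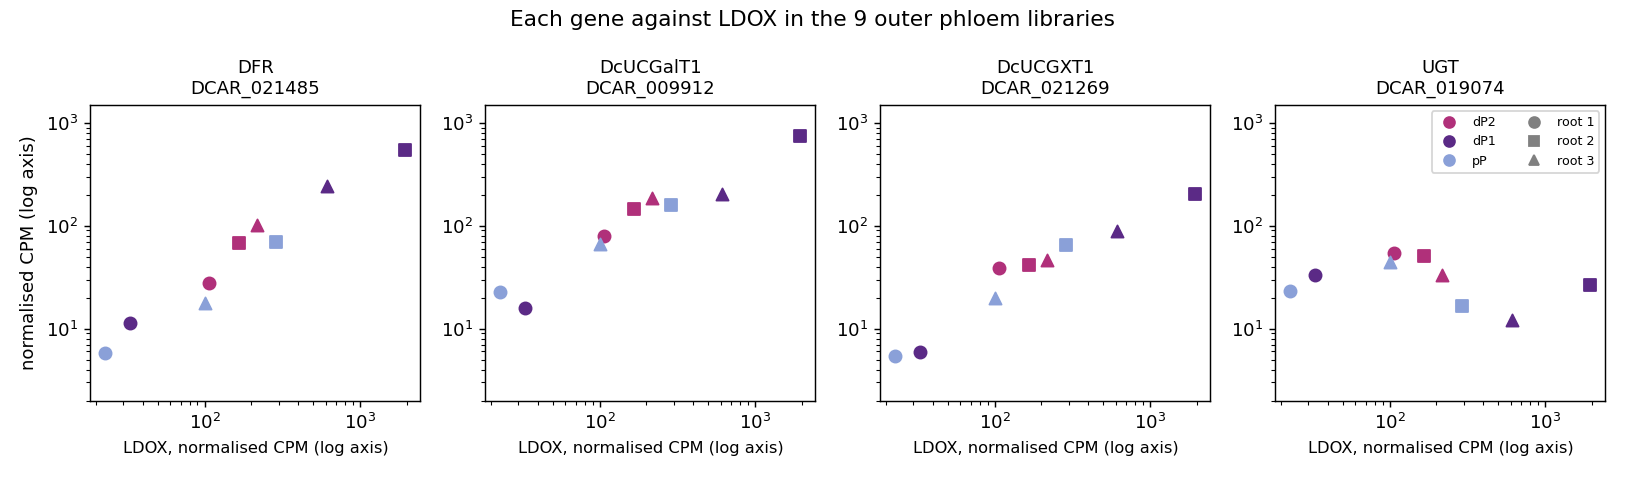
Normalised CPM (log axes) of DFR, DcUCGalT1, DcUCGXT1 and UGT against LDOX in the 9 POP libraries, coloured by set and marked by root. In the first 3 panels the genes rise together through all sets, with r between 0.966 and 0.978, and UGT (r = −0.34) stays between 12.2 and 54.1 CPM.

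The NPIP libraries repeated the grouping at a much lower level. NPIP of dP1 root 2 was the highest NPIP library for DFR (7.81 CPM), LDOX (17.3 CPM), DcUCGalT1 (6.98 CPM) and DcUCGXT1 (5.56 CPM), and NPIP of pP root 2 was the highest of pP for the same 4 genes. Both came from the roots with the highest POP values of their sets. LDOX in NPIP of dP1 root 2 rested on 146 reads, and in the other 8 NPIP libraries on fewer, down to 3. Over the 9 NPIP libraries, r with LDOX was 0.839 for DFR, 0.849 for DcUCGalT1, 0.895 for DcUCGXT1 and 0.07 for UGT. With such small counts these values are a description only.

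The genes most like each member were looked for among 20252 others, by r of log2 CPM over the 18 libraries, all of which share the split between tissues. For LDOX they were DcGST1 (DCAR_003401, a glutathione S-transferase of the kind that carries anthocyanin to the vacuole, r = 0.984), DcUCGXT1 (r = 0.983) and DcUCGalT1 (r = 0.982). For DcUCGalT1 they were DcUCGXT1 (r = 0.985), LDOX and DCAR_029082 (r = 0.979). For DcUCGXT1 they were DcUCGalT1, LDOX and DcGST1 (r = 0.978). For DFR they were DCAR_021490 (r = 0.974), DcGST1 (r = 0.971) and chalcone isomerase, CHI (DCAR_027694, r = 0.968). For UGT they were 3 genes not in the lists used here, DCAR_002669 (r = 0.985), DCAR_018660 (r = 0.975) and DCAR_024751 (r = 0.973). Within the 9 POP libraries alone, the r of UGT with these was 0.728, 0.555 and 0.765, while that of LDOX with DcGST1 was 0.962.

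The other 13 pathway and transport genes of the study's list were also higher in POP. Of them, 9 were upregulated in dP2, 11 in dP1 and 8 in pP, with none downregulated, and 13 of 13 were upregulated over the 3 sets together. The shares of all genes upregulated were 8.22%, 11.5%, 4.89% and 19.4% in this order, and the share downregulated was not counted. The largest mean log2FC was that of the flavanone 3-hydroxylase F3H DCAR_009483 at 7.15 ± 0.96 (edgeR FDR = 5.12e-05), where LDOX had 6.53. The smallest was that of the ABC-C transporter DCAR_010639 at 1.50 ± 0.27 (edgeR FDR = 0.000501). The study chose this list on the same libraries, so its direction is not independent evidence.

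Within POP, 5 of the 13 were upregulated and 0 downregulated in dP2 over pP, where 31.1% of all genes were called in either direction. In dP2 over dP1, 6 were upregulated and 1 downregulated, where 33.5% of all genes were called in either direction. The 5 genes upregulated in both were the 3 phenylalanine ammonia-lyases (PAL) and the 2 4-coumarate:CoA ligases (4CL), the enzymes that feed the general phenylpropanoid pathway, named after their values were seen. Their summed level was 3079, 5972 and 3621 CPM in POP of dP2, 409, 597 and 549 CPM in POP of dP1 and 424, 677 and 650 CPM in POP of pP. The other upregulated gene was F3H DCAR_010572 in dP2 over dP1 (3.63 ± 0.65, edgeR FDR = 0.000907), which was also the 1 gene downregulated in dP1 over pP (−3.98 ± 0.66, edgeR FDR = 0.00786). The flavonoid 3′-hydroxylase F3'H (DCAR_014032), which sets the cyanidin-type pattern of the pigment, was downregulated in dP2 over dP1 (−2.01 ± 0.64, edgeR FDR = 0.0258). In POP of dP1 root 1, where DFR, LDOX, DcUCGalT1 and DcUCGXT1 were low, the PAL and 4CL genes were mixed. PAL DCAR_014989 and PAL DCAR_017697 were also lowest in root 1, at 87.7 CPM against 216 and 154 CPM in roots 2 and 3, and at 77.3 CPM against 204 and 169 CPM. PAL DCAR_020833 and 4CL DCAR_025617 were highest in root 1, at 93.7 CPM against 71.6 and 61.4 CPM, and at 6.77 CPM against 3.43 and 2.72 CPM. Chalcone synthase (CHS, DCAR_030786), the entry into flavonoids, was low there with the late genes, at 33.6 CPM against 4410.1 and 798 CPM in roots 2 and 3.

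UGT was more like the PAL and 4CL genes than like LDOX. With the group means taken out, its r with the 3 PAL and 2 4CL genes was between 0.555 and 0.719, and with LDOX it was 0.097. These were not its closest genes, since its r was 0.888 with DCAR_002669, 0.815 with DCAR_024751 and 0.742 with DCAR_018660. With the regulator DcERF1 (DCAR_016339) it was 0.722. Over the 9 POP libraries, r with the PAL and 4CL genes was between 0.417 and 0.726 for UGT. Its highest r there on the pathway list was 0.855, with ABC-C. For LDOX, with the group means taken out, r was between −0.23 and 0.640 with the PAL and 4CL genes, 0.947 with CHS and 0.973 with DcGST1. The 0.640 was with PAL DCAR_017697, where UGT had 0.555. The NPIP of dP2 root 3, which held most UGT reads of the inner phloem, had a PAL and 4CL sum of 1407 CPM, against 94.9 and 198 CPM in NPIP of dP2 roots 1 and 2 and at most 35.8 CPM in NPIP of dP1 and pP. DFR in that library was 2.75 CPM and LDOX 2.29 CPM. Correlations rest on the same 18 libraries and on 1 normalisation, and are given as descriptions.

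**Figure D5:**
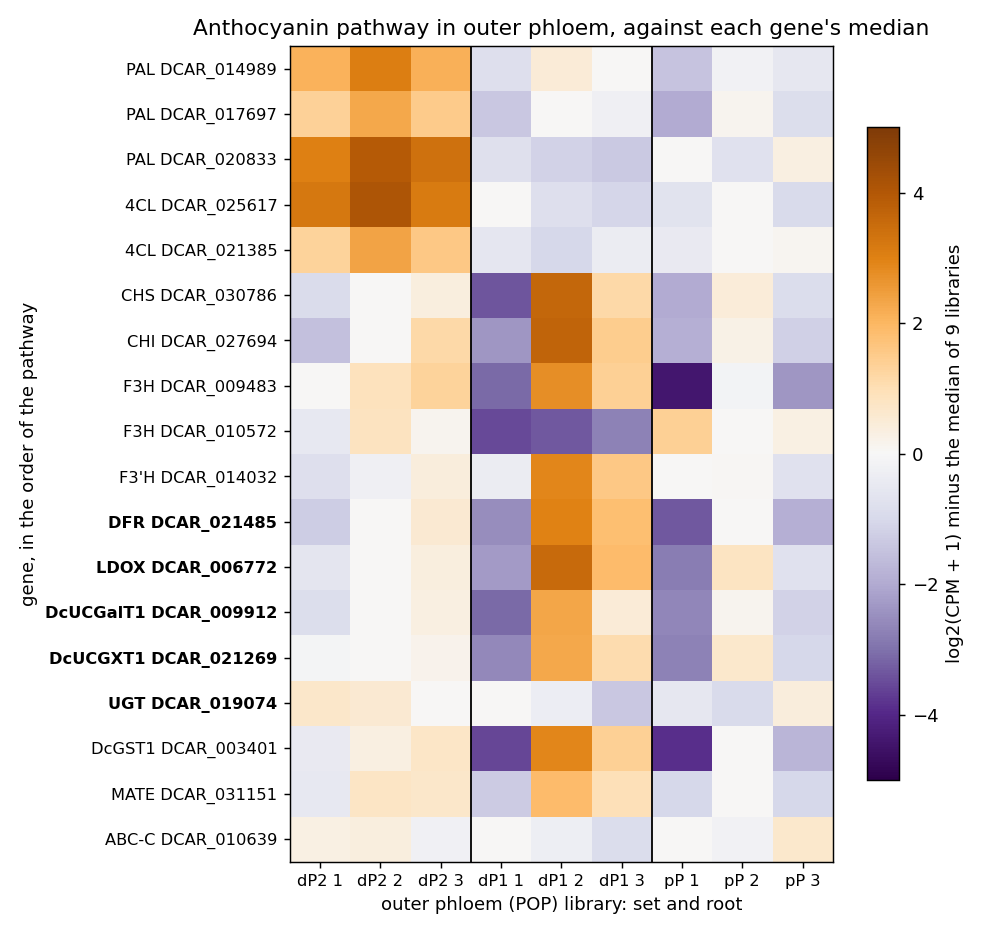
Log2(CPM + 1) of 18 pathway and transport genes in the 9 POP libraries, each minus its own median over these libraries, with the 5 genes described here in bold. The PAL and 4CL genes are high in dP2, whereas the genes from CHS to DcUCGXT1, together with DcGST1, are low in root 1 of dP1 and of pP and high in root 2 of dP1, except F3H DCAR_010572 and, in root 1, F3'H.

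Of 7 regulators on the study's list, 3 were upregulated in POP of dP2, and 4 and 3 of the 6 tested in dP1 and pP, with 7 of 7 over the sets together. The shares of all genes were 8.22%, 11.5%, 4.89% and 19.4%. Except for DcMYB113, the study chose these regulators on the same libraries, so their direction is not independent evidence. DcbHLH3 (DCAR_002739), a bHLH factor, had 14.3, 157 and 43.7 CPM in POP of dP1, and r = 0.861 with LDOX over the POP libraries. DcMYB6 (DCAR_000385), a MYB factor, had 0.796, 23.2 and 9.88 CPM there and r = 0.926. Both were thus lowest in root 1 and highest in root 2 of dP1, as were DFR, LDOX, DcUCGalT1 and DcUCGXT1. DcMYB7 (DCAR_010745), a MYB factor linked to carrot root colour, had the same order. It had 2.65, 36.7 and 15.1 CPM in POP of dP1 and r = 0.826. In POP of pP all 3 factors were highest in root 2 but lowest in root 3, with DcbHLH3 at 6.36, 18.5 and 5.14 CPM. DcMYB6 had 1.66, 7.97 and 1.26 CPM there, and DcMYB7 2.77, 4.52 and 2.41 CPM. In POP of dP2, DcbHLH3 had 9.57, 16.0 and 15.2 CPM, DcMYB6 4.20, 3.42 and 6.21 CPM, and DcMYB7 2.34, 2.81 and 2.30 CPM. DcMYB6 and DcMYB7 passed the tissue test in no set alone (edgeR FDR 0.0537 to 0.128). The remaining regulators of the list did not follow LDOX over the POP libraries. DcERF1 (DCAR_016339) had 4.51, 1.66 and 2.22 CPM in POP of dP1, and the MYB genes DCAR_003717 and DCAR_028312 had 43.6, 9.73 and 52.9 CPM and 12.2, 7.19 and 4.32 CPM. Over the POP libraries their r with LDOX was −0.29, −0.19 and −0.30, and that of DcMYB113 was 0.155. DcMYB7 was lower in POP of dP2 than in POP of dP1 by a log2FC of −2.81 ± 0.96 (edgeR FDR = 0.0346). Over the POP libraries, UGT had r of −0.43, −0.43 and −0.55 with DcbHLH3, DcMYB6 and DcMYB7. Its r was positive with the rest of the list. It was 0.637 with DcERF1, 0.660 with DCAR_028312, 0.610 with DcMYB113 and 0.401 with DCAR_003717. These regulators were named after their values were seen, and DcMYB113 was counted under DCAR_008994, its identifier in the study's primer table.

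The labelled tissues differed in other markers too. The 3 APL homologs, APL being a phloem identity factor in Arabidopsis, summed to 5.52 to 11.9 CPM in POP of dP2 against 58.9 to 87.0 CPM in NPIP. In dP1 they summed to 1.19 to 3.98 CPM in POP and 20.1 to 28.0 CPM in NPIP, and in pP to 0.553 to 3.32 CPM in POP and 11.5 to 14.9 CPM in NPIP. Of the 3, 3 were downregulated in POP of dP2, 3 in dP1 and 1 in pP, and DCAR_019908 was at 0 in 3 POP libraries. The share of all genes downregulated was not counted, so these counts are descriptions only. Over the 3 sets the median log2FC of the APL homologs was −2.98, against −0.02 for all genes. Both secondary wall genes, KNAT7 (DCAR_008430) and an IRX-like gene (DCAR_010869), were upregulated in POP of dP2 and dP1, and KNAT7 in pP. They summed to 27.1 to 41.9 CPM in POP and 5.14 to 6.95 CPM in NPIP of dP2, 9.02 to 18.8 CPM in POP and 0.581 to 1.66 CPM in NPIP of dP1, and 8.64 to 18.8 CPM in POP and 0.466 to 3.09 CPM in NPIP of pP. Outer and inner phloem differed in these markers as well as in colour, and the part of cell makeup in the values of the 5 genes was not tested.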

How the data were processed

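Libraries were grouped by the sample labels into POP and NPIP of dP2, dP1 and pP, with 3 roots each. The authors sequenced single-end reads on an Illumina HiSeq, trimmed them with Trimmomatic 0.32, checked them with FastQC, and quantified the genes of carrot annotation V1.0 by RSEM with Bowtie2. The values deposited by the authors are RSEM expected counts, not normalised, and the TPM that RSEM derives from them. Where a read fits more than 1 gene, RSEM splits it, so members of a large family such as the glycosyltransferases can share reads. Strand was not stated. The lengths deposited by the authors were multiples of 3 in 99.99% of genes and so are coding lengths. Gene coordinates, promoters and proteins of these genes were not used here.

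Expected counts were first rounded. A gene entered a fit with 1 CPM or more in 3 or more libraries. Groups were compared after TMM scaling with edgeR 4.0.16 (R 4.3.3), by its quasi-likelihood test. The tissue effect of a set was tested on its 6 libraries. The mean over sets, the comparisons between sets and the differences of tissue effects came from 1 fit of 18 libraries and 6 groups (20253 genes). FDR is Benjamini-Hochberg over all genes tested, called under 0.05. The SE was taken as the absolute log2FC over the root of the F statistic. For correlations, log2 CPM had a prior count of 2, and the 3 genes with the highest r were named for each member. Other pathway genes were to be named where they had the largest or smallest log2FC of their list, and exceptions are marked. Members, lists and tests were chosen with earlier results of these data known. The tests were checked on simulated libraries, drawn without root pairing and at the spread typical of a gene's level. That check does not cover genes as variable between roots as DFR, LDOX, DcUCGalT1 and DcUCGXT1 in dP1.

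By the study's methods POP and NPIP of 1 number were cut from 1 root, which pairs the libraries. Same-numbered libraries had correlated deviations from their group means in dP2 (r = 0.537, 0.316 and 0.399) and dP1 (0.344, 0.437 and 0.342), but in pP r was −0.23, 0.573 and −0.10, and POP 1 with NPIP 3 gave 0.577. Alternatives were RLE size factors, no low-count filter, DESeq2 1.42.0, the likelihood ratio test and unrounded counts. Others were the root as a block, other sets of libraries in the fit, and each library left out. With a library left out, the filter was 1 CPM in 2 libraries for the tissue effect within a set, and in 3 libraries otherwise. The p-values of a tissue effect within a set rest on the spread among roots within its POP and NPIP groups. Those from the fit of 18 libraries rest on a spread per gene shared over all 6 groups. A comparison between sets there also carries the spread of the other groups. Except in the block fit, POP and NPIP of a root were treated as separate libraries.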

Additional observations from a re-analysis of the deposited data

How the results depend on the processing

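With the root as a replicate block, the number of the 5 genes called in the tissue comparison was 5 in dP2, 5 in dP1, 3 in pP and 5 over the sets, and the paired fit changed no call of a single gene. That fit paired libraries by their number, and in pP the numbers of roots 1 and 3 may be crossed. For results that include pP, it cannot show what the true pairing would give. The number called in pP was 5 with DESeq2, 5 with the likelihood ratio test and 5 in 1 fit of 18 libraries, against 3. In POP of dP1 against pP it was 1 with DESeq2 and 1 with the likelihood ratio test, against 0. In NPIP of dP2 against pP and of dP2 against dP1 it was 0 with the 6 libraries alone, against 1, since UGT then had too few counts to be tested. RLE size factors, no filter and unrounded counts changed none of these numbers. The cause of these changes was not tested. With 1 library left out, the number called ranged from 4 to 5 in dP2, from 1 to 5 in dP1, from 1 to 5 in pP, and from 0 to 1 in POP of dP2 against dP1, NPIP of dP2 against pP and NPIP of dP2 against dP1.

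Of 540 single-gene values with 1 library left out, 34 changed sign, all of them uncalled differences between sets. Their log2FC ranges were as follows. In POP, UGT in dP1 over pP ran from −0.53 to 0.29, LDOX in dP2 over pP from −0.19 to 1.48, and DcUCGalT1 in dP2 over dP1 from −1.72 to 0.39. In NPIP of dP1 over pP, LDOX ran from −0.59 to 2.37, DcUCGalT1 from −1.78 to 1.70 and DcUCGXT1 from −0.64 to 1.32. In NPIP of dP2 over pP, DFR ran from −0.031 to 0.38, DcUCGalT1 from −0.76 to 0.84 and DcUCGXT1 from −0.36 to 0.64. In NPIP of dP2 over dP1, DcUCGalT1 ran from −1.42 to 1.43 and DcUCGXT1 from −1.19 to 0.69. For the tissue effect in dP1 minus pP, LDOX ran from −0.11 to 3.25, DcUCGalT1 from −0.11 to 3.73, DcUCGXT1 from −0.11 to 2.36 and UGT from −0.089 to 1.99. In dP2 minus pP, DcUCGalT1 ran from −0.059 to 2.05, DcUCGXT1 from −0.11 to 1.77 and UGT from −2.60 to 0.12. In dP2 minus dP1, DFR ran from −1.52 to 0.13, LDOX from −1.81 to 1.55, DcUCGalT1 from −2.60 to 1.24 and DcUCGXT1 from −1.87 to 0.59. Small counts limited the NPIP values, where DcUCGalT1 and UGT had a library with 0 reads.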
